A study of Lupinus micranthus with 18 samples.

Results

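Leaves of Lupinus micranthus seedlings raised from America seeds were compared after 72 h and after 24 h of drought imposed with polyethylene glycol (PEG). The comparison rests on 6 of the 18 RNA sequencing libraries of the series, chosen by their labels alone: 3 from America seedlings given PEG for 72 h and 3 from America seedlings given PEG for 24 h. Set beside them were 6 libraries from Iceland seedlings under PEG for the same times (3 at 72 h and 3 at 24 h) and 3 from untreated seedlings of each origin. All were leaf samples of one species, and the labels give no age, no plant number and no hour of harvest. The labels do not say whether the 3 libraries of a group came from separate plants, so the spread behind each p-value may be a technical one. With no untreated leaves at a matched hour, the duration of PEG cannot be told apart from seedling age or harvest time.

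Lupins are legumes, and L. micranthus is a hairy-leaved annual. PEG is a polymer that stays outside the cell and lowers the water potential of the root medium, so that roots take up water less easily. Leaves of seed plants are known to answer such stress with an early phase, in which hormone signalling by abscisic acid and closure of stomata set in, and with a later phase of adjustment, in which photosynthesis, growth and the pool of protective solutes are reset. Comparing a later with an earlier time addresses how far the transcript pool still moved once stress was under way.

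Reads were counted on 81470 unigenes, the assembled transcript units that stand in for genes where no genome sequence is used. The deposited table pairs no unigene with a gene name, so the leaf label could not be checked against marker genes, gene functions are not given, and the results are told by groups of unigenes and by 2 that rose and 2 that fell. The 6 libraries held 10332305 to 12440465 counts each. Levels are given as CPM, the counts of a unigene relative to its TMM-scaled library total. A count of 0 in one of these libraries allows a level of up to 3 counts, or 0.223 to 0.273 CPM, by counting error alone. Replicates correlated at 0.960 to 0.971 across unigenes (log2 CPM) in the 72 h libraries and at 0.943 to 0.964 in the 24 h libraries, where replicate 3 stood farthest from the others. Among the more abundant unigenes the median SD between replicates was 0.187 at 72 h and 0.223 at 24 h on the log2 CPM scale.

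Measures of the whole leaf transcript pool overlapped between the times. At an equal depth of 10332305 counts, 46804, 46430 and 47002 unigenes had at least 1 count in the 72 h libraries, against 46195, 45722 and 47024 in the 24 h libraries. The 24 h range enclosed the 72 h range, and the mean difference of 431 unigenes gave p = 0.4 (exact permutation test, two-sided; 0.1 is the smallest that 3 libraries against 3 can give). The 20 unigenes with the highest mean share of counts over all libraries held 6.19%, 6.67% and 8.63% of the counts at 72 h, against 9.70%, 9.75% and 6.39% at 24 h, with a mean difference of -1.45 points (exact permutation test, two-sided, p = 0.3). The 1000 highest held 45.9% ± 1.14 at 72 h and 48.2% ± 2.05 at 24 h (SD, n = 3 each; p = 0.2, same exact permutation test).

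Against that background a small set of unigenes changed. Of 30895 unigenes tested, 250 were higher at 72 h than at 24 h and 187 were lower, 437 in all or 1.41% (edgeR quasi-likelihood test, Benjamini-Hochberg adjusted p under 0.05; 0.809% higher and 0.605% lower). The median log2 fold change over all unigenes tested was -0.01. The rises were the larger changes: their median log2 fold change was 1.45, or 2.73-fold, with an interquartile range of 0.91 to 2.21. The falls had a median of -1.02, or 2.02-fold, with an interquartile range of -1.34 to -0.79. At least a 2-fold change was reached by 170 of the 250 rises (0.550% of all tested) and by 96 of the 187 falls (0.311%), and at least a 4-fold change by 79 and by 16. All 437 had libraries that did not overlap between the times, as did 22.3% of all unigenes tested.

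**Figure D1:**
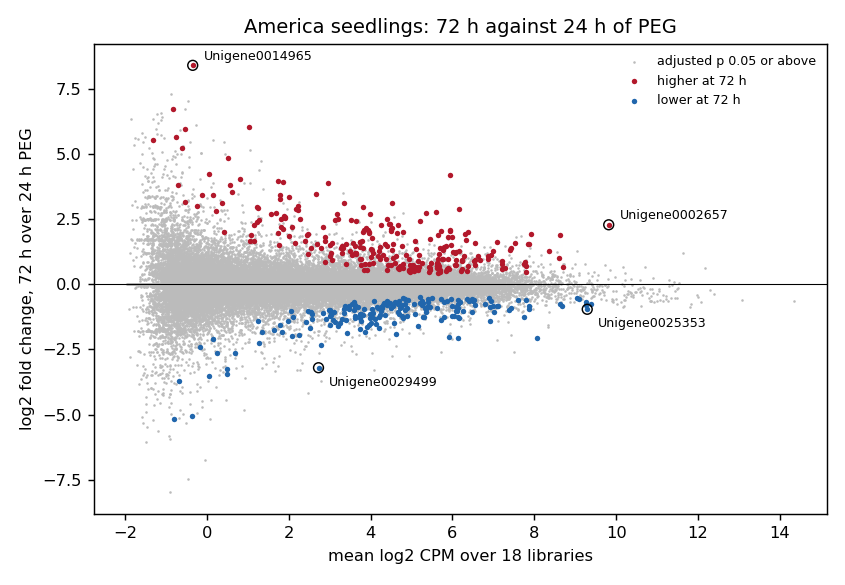
Each point is a unigene, with its mean log2 CPM over 18 libraries on the x axis and its fitted log2 fold change, 72 h over 24 h of PEG in America leaves, on the y axis. Coloured points are the 250 unigenes higher and the 187 lower at 72 h, grey points those that did not pass, and circles mark the 4 unigenes described by name. The called rises spread farther from 0 than the called falls.

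How many changes were called depended on which libraries entered. Without 24 h replicate 2 the count was 105 in place of 437, and without 24 h replicate 1 it was 118. Without 72 h replicate 1, 2 or 3 it was 130, 135 or 186. Without 24 h replicate 3 it was 461, of which only 275 were among the 437. With the same 30895 unigenes tested each time, a setting added after the data were seen, 81 of the 437 passed in all 6 of these refits, 61 higher and 20 lower. The DESeq2 Wald test called 1486, and 391 passed with edgeR, limma-voom and DESeq2 alike.

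The 250 higher unigenes took up a larger part of the transcript pool at 72 h than at 24 h. Together they held 2.63%, 2.70% and 2.82% of all counts in the 72 h libraries, against 1.03%, 1.00% and 1.09% in the 24 h libraries, values that describe the choice of these unigenes and carry no test. In untreated America leaves, which are not in that contrast, they held 0.893%, 0.768% and 0.858%. Each of the 24 h libraries thus stood above the untreated range and below the 72 h range. The 24 h libraries helped to choose the members, so how near they lay to either range carries no test. The 10 members with the highest CPM made up 32.5% of the set's total CPM at 72 h.

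The 187 lower unigenes took up a smaller part at 72 h than at 24 h. They held 0.803%, 0.816% and 0.780% of counts at 72 h, against 1.40%, 1.48% and 1.42% at 24 h. Untreated America leaves held 1.84%, 1.82% and 1.76% in them, above every PEG library. In untreated, 24 h and 72 h leaves the group means were 1.81% ± 0.0418, 1.43% ± 0.0413 and 0.800% ± 0.0185 (SD, n = 3 each), an order of groups and not a time course.

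The same unigenes were then read in Iceland leaves, whose libraries are not in the contrast that chose them but entered the shared filter, scaling and estimate of spread. The 250 that rose in America held 2.39%, 2.46% and 2.52% of counts in the Iceland 72 h libraries, against 1.46%, 1.38% and 1.38% in the Iceland 24 h libraries, and 0.814% ± 0.0816 (SD, n = 3) in untreated Iceland leaves. The groups did not overlap. The 187 that fell in America held 0.831%, 0.846% and 0.790% at 72 h in Iceland, against 1.09%, 1.16% and 1.10% at 24 h, and 1.71% ± 0.0782 (SD, n = 3) untreated. At 24 h the higher set stood above, and the lower set below, its level in America leaves of the same time (1.41% ± 0.0485 in Iceland against 1.04% ± 0.0436 in America, and 1.12% ± 0.0345 against 1.43% ± 0.0413, SD, n = 3 each). The America 24 h libraries helped to choose the members, so this last difference has no test.

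**Figure D2:**
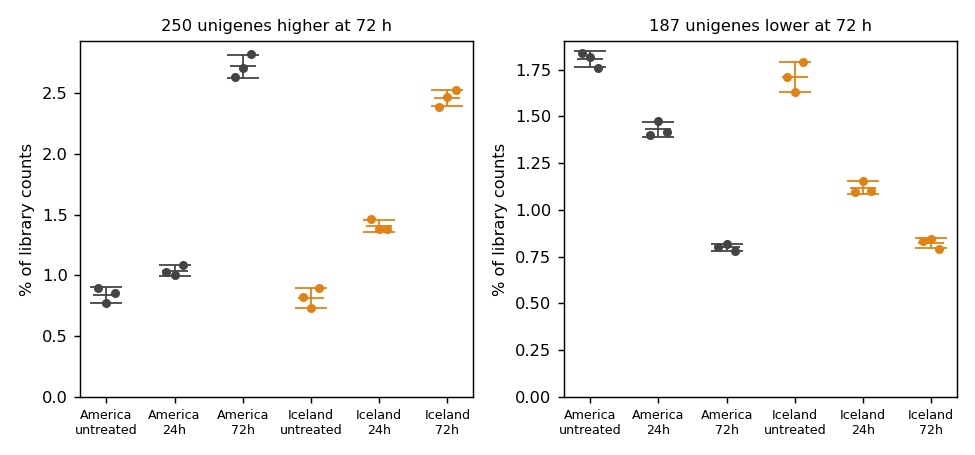
Points are libraries, and the bars give the mean and SD of 3. The y axis is the percent of a library's counts held by the 250 unigenes higher at 72 h in America leaves (left) and by the 187 lower (right), in America (grey) and Iceland (orange) leaves left untreated or given PEG for 24 h or 72 h. In both origins the left set is highest and the right set lowest at 72 h.

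Unigene by unigene, 226 of the 250 higher unigenes (90.4%) also had a positive change from 24 h to 72 h in Iceland, against 51.2% of all unigenes tested. Their median Iceland log2 fold change was 0.61, against 0.02 over all tested. Of the 187 lower unigenes 166 (88.8%) had a negative change in Iceland, against 48.6% of all tested, with a median of -0.47. The America and Iceland comparisons share no library. The America values chose the members, so no test is given of how the sizes of the changes compare between origins.

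In Iceland leaves 618 unigenes were higher at 72 h than at 24 h and 531 were lower, 1149 or 3.72% of those tested (2.00% and 1.72%; edgeR, adjusted p under 0.05). Leaving out 1 library moved that count. Without Iceland 72 h replicate 1, 2 or 3 it was 231, 290 or 1215, and 792 of the 1215 were among the 1149. Without Iceland 24 h replicate 1, 2 or 3 it was 459, 378 or 591, with more falls than rises in each of these 3 fits. It was 1812 without untreated Iceland replicate 3. Of the 250 America rises 79 were among the Iceland rises, which is 31.6% of the America list and 12.8% of the Iceland list, and 1 was among the Iceland falls. Of the 187 America falls 54 were among the Iceland falls, 28.9% of the America list and 10.2% of the Iceland list, and 1 was among the Iceland rises. Leaving out 1 library took the shared rises as low as 28 (without Iceland 72 h replicate 1) and the shared falls as low as 12 (without America 24 h replicate 2). The share called in Iceland was higher for larger rises: 34 of 79 that reached 4-fold in America, 26 of 91 between 2-fold and 4-fold, and 19 of 80 below 2-fold. For falls it was 4 of 16, 28 of 80 and 22 of 91. Across the 437 unigenes the log2 fold changes of the origins correlated at r = 0.644 (Spearman's rho 0.775), and across all 30895 at r = 0.196 (rho 0.237). The America changes chose the 437, and leaving out the small ones can by itself raise both values. These correlations are a description over unigenes, which are not independent replicates.

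**Figure D3:**
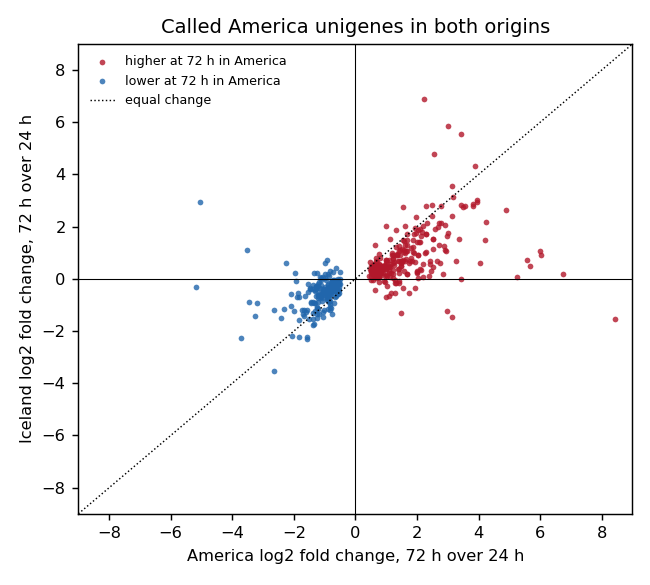
Each point is one of the 437 unigenes called in America leaves, with its log2 fold change (72 h over 24 h) in America on the x axis and in Iceland on the y axis. The dotted line marks equal change. Of the 250 higher in America 226 lie above 0 in Iceland, and of the 187 lower 166 lie below 0.

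Untreated leaves, which have no labelled hour, were set beside both PEG times. The order untreated, 24 h and 72 h is one of groups and not a time course, and a step below leads from a group to the next. Each comparison with untreated leaves shares the PEG libraries used here, so that levels alone are given. For 155 of the 250 higher unigenes (62.0%) the untreated America mean lay below both PEG means, so that the level stood higher at each step. Their median level was 3.29 in untreated leaves and 5.62 at 72 h (log2 CPM), with 24 h between them. Among all unigenes with a positive fitted change 51.4% had this order. In another 79 (31.6%, against 16.2%) the untreated level lay between the PEG levels, with medians of 4.12, 3.60 and 5.03: they stood lower at 24 h than untreated and above it at 72 h. In 16 (6.40%, against 32.4%) it lay above both, with medians of 5.62, 4.66 and 5.56. The called rises and falls were chosen for a wide gap between the PEG levels. That choice by itself shifts the class shares away from those of all tested, so the shares carry no test.

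The falls mirrored this order. In 126 of the 187 (67.4%, against 47.2% of all with a negative fitted change) the untreated level lay above both PEG levels, with medians of 5.51 untreated, 4.85 at 24 h and 3.92 at 72 h. In 46 (24.6%, against 15.3%) it lay between, at 4.59, 4.99 and 3.77. In 15 (8.02%, against 37.5%) it lay below both, at 2.98, 5.34 and 4.18, a level at 24 h well above the untreated one that was lower again at 72 h. In 194 of the 437 (44.4%) all 3 untreated America libraries lay below, or all 3 above, the 6 America PEG libraries, against 36.2% of all tested.

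Iceland leaves showed the same stepwise order for most members of the largest classes. Of the 155 unigenes with a level higher at each step in America 130 (83.9%) had that order in Iceland too, against 48.3% of the 7611 of that class among all tested, with medians of 3.38, 4.31 and 5.39. Of the 126 with a level lower at each step 109 (86.5%) did, against 51.2% of 7446, with medians of 5.51, 4.48 and 3.90. Where the untreated level lay between the PEG levels, 23 of 79 higher unigenes (29.1%, against 17.9% of 2400) and 13 of 46 lower unigenes (28.3%, against 15.6% of 2413) had their America order in Iceland. The same held for 10 of the 16 higher unigenes with the untreated level above both (62.5%, against 35.0% of 4796), and for 8 of the 15 lower unigenes with it below both (53.3%, against 34.8% of 5915). Called unigenes were chosen for a wide gap, with median America log2 fold changes of 1.44 in the 155 and -0.95 in the 126. Over the 7611 and the 7446 the medians were 0.30 and -0.34. Small changes leave the order more to the spread between replicates, so these shares carry no test.

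**Figure D4:**
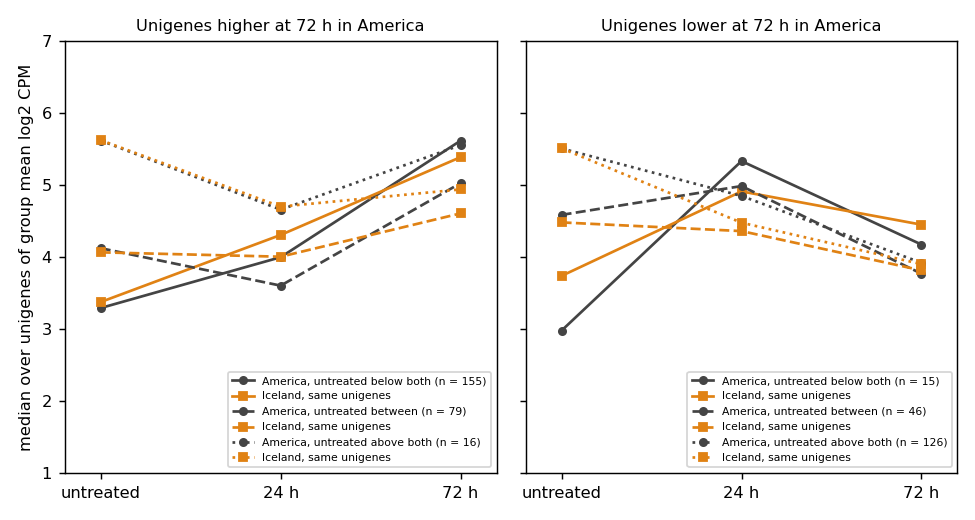
Lines join the median, over unigenes, of the group mean log2 CPM in untreated leaves and after 24 h and 72 h of PEG, for unigenes higher (left) and lower (right) at 72 h in America leaves. Line styles give where the untreated America level lay relative to both PEG levels, with the number of unigenes, and orange lines show the same unigenes in Iceland leaves. In both origins the median of the 155 unigenes is highest, and that of the 126 lowest, at 72 h.

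Few unigenes, called or not, had 0 counts in all libraries of a group. Of the 250 higher unigenes 3 had 0 counts in all 24 h libraries, and of the 187 lower 1 had 0 counts in all 72 h libraries. Counts of 0 in all 3 libraries were found at 24 h in 493 and at 72 h in 416 of the 30895 unigenes tested, so such counts do not set the called unigenes apart. In untreated America leaves 5 of the higher and 1 of the lower unigenes had 0 counts, against 582 of all tested. The unigene lengths implied by the deposited counts and FPKM values had a median of 1599 bases among the higher, 1825 bases among the lower and 1362 bases among all unigenes tested. Longer unigenes collect more counts at a given level.

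Calls were concentrated where counts were many. Divided into 4 equal classes by mean CPM over all libraries, the class with the fewest counts (0.171 to 1.38 CPM) had 13 calls, or 0.168%, and the next 42 (0.544%). The third (5.87 to 22.7 CPM) had 141 (1.83%) and the uppermost 241 (3.12%). The median size of a called change ran the other way, from 3.82 on the log2 scale in the lowest class to 0.94 in the uppermost. The median half-width of the 95% interval of a change was 1.77 in the lowest and 0.39 in the uppermost, so that small changes were not detectable among unigenes with few counts.

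A unigene that did not pass is not shown to be alike at both times. Of the 30458 not called, 12364 (40.6%) had a 95% interval lying wholly within 2-fold either way, 75.3% of all unigenes in the uppermost class by counts and 0.350% in the lowest. For 17780 the interval reached 2-fold or beyond, and 314 tested unigenes had no counts in any of the 6 libraries.

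The largest called rise by fold was that of Unigene0014965, an assembled transcript of 1767 bases. It stood at 44.1, 24.8 and 0.223 CPM in the 72 h libraries, against 0, 0.153 and 0 CPM in the 24 h libraries. Replicates 1 and 2 at 72 h were high, and replicate 3, with 3 counts, was close to the 24 h level, so the groups were parted by 1 count in their nearest libraries. Over the groups this was 870 counts against 2, 405 times as many at equal depth, within 112 to 3352 by counting error alone (95% interval). The fitted log2 fold change was 8.43 ± 1.79 SE (edgeR adjusted p = 0.0312). It did not pass with limma-voom (adjusted p = 0.591) or with replicate number as a block (edgeR adjusted p = 0.0764). The call was also lost when any 1 of 5 of the 6 libraries was left out (edgeR adjusted p up to 0.126 without 24 h replicate 1). Untreated America leaves held 0.134 ± 0.162 CPM, and in Iceland it reached 0.818 ± 0.910 CPM at 72 h and 2.31 ± 2.11 CPM at 24 h (SD, n = 3 each).

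Unigene0002657, of 2614 bases, rose by the largest amount in CPM. It stood at 1123, 2103 and 2769 CPM in the 72 h libraries, against 677, 407 and 137 CPM in the 24 h libraries, with every 72 h library above every 24 h library (log2 fold change 2.30 ± 0.53 SE, edgeR adjusted p = 0.0452). Per length it averaged 837 FPKM at 72 h and 166 FPKM at 24 h. Untreated America leaves held 1200 ± 438 CPM (SD, n = 3), so its level was lowest at 24 h. Iceland leaves had the same order of groups, with 2183 ± 397 CPM at 72 h against 314 ± 154 CPM at 24 h (SD, n = 3 each; log2 fold change 2.80 ± 0.54 SE, edgeR adjusted p = 0.0131). Untreated Iceland leaves held 1277 ± 403 CPM (SD, n = 3). Within America the call was lost without any 1 of the 6 libraries (edgeR adjusted p 0.0518 to 0.148). The call was also lost with replicate number as a block (edgeR adjusted p = 0.0957) and in a fit to only the groups compared (0.119).

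Unigene0029499, of 1662 bases, had the largest fold among the falls that met the rule for naming, which asked for 5 CPM in a group. It stood at 3.34, 2.25 and 2.46 CPM at 72 h, against 9.02, 15.4 and 50.1 CPM at 24 h. The 72 h libraries lay close together, and 24 h replicate 3 was far above replicates 1 and 2. The log2 fold change was -3.20 ± 0.55 SE (edgeR adjusted p = 0.00952). Without 24 h replicate 3 it was -2.18 (adjusted p = 0.0190). The call was lost without 72 h replicate 2 or 3 (adjusted p = 0.0642 and 0.0525) and in a fit to only the groups compared (0.0760). Untreated America leaves held 16.4 ± 2.43 CPM (SD, n = 3). In Iceland leaves it was already low at 24 h, with 1.96 ± 0.921 CPM at 72 h and 3.68 ± 1.44 CPM at 24 h (SD, n = 3 each; edgeR adjusted p = 0.404), against 13.3 ± 5.27 CPM untreated. The difference between the origins' changes was 2.29 ± 0.78 SE on the log2 scale, which did not pass (edgeR adjusted p = 0.298).

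Unigene0025353, of 2446 bases, fell by the largest amount in CPM and was the steadiest of the 4. It stood at 386, 382 and 397 CPM in the 72 h libraries, against 690, 847 and 719 CPM in the 24 h libraries. The 72 h libraries lay within a narrow range, about 1.94-fold lower (log2 fold change -0.95 ± 0.15 SE, edgeR adjusted p = 0.00754). It passed in every fit that tested it by name, with edgeR, limma-voom or DESeq2 adjusted p of at most 0.0442. Its change was below the further minimum of 2-fold. Per length it averaged 174 FPKM at 72 h and 327 FPKM at 24 h. Untreated America leaves held 1341 ± 65.9 CPM, so that its level was lower at each step. In Iceland leaves it averaged 289 ± 4.77 CPM at 72 h and 401 ± 31.9 CPM at 24 h (SD, n = 3 each; log2 fold change -0.47 ± 0.15 SE, edgeR adjusted p = 0.0950), against 1375 ± 302 CPM untreated.

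**Figure D5:**
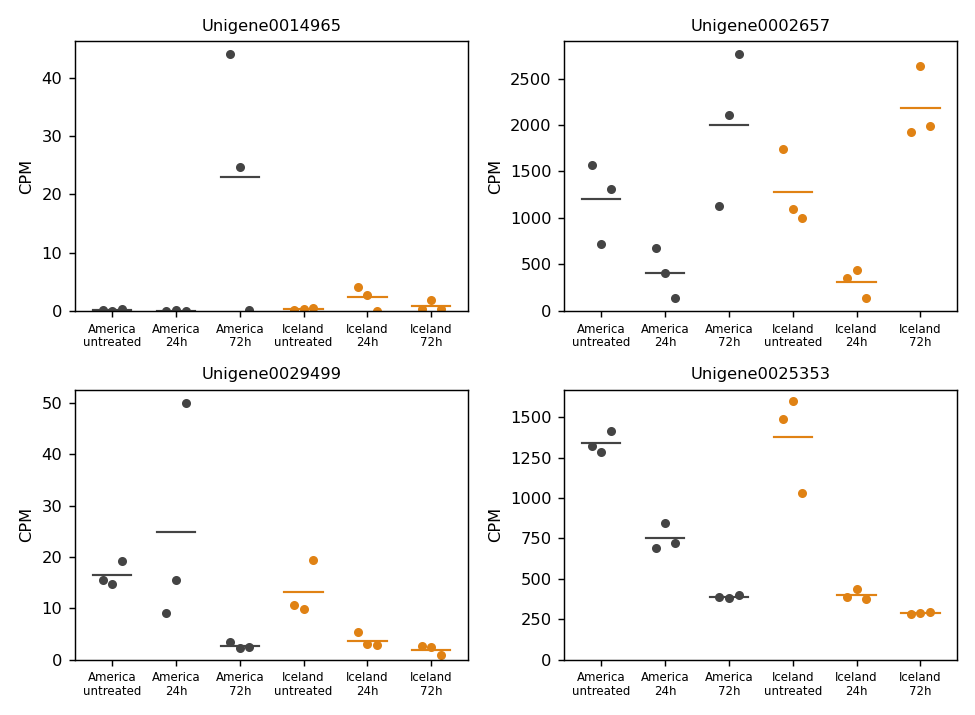
Points are the CPM of 4 unigenes in each library and lines the mean of 3, in America (grey) and Iceland (orange) leaves left untreated or given PEG for 24 h or 72 h. Unigene0014965 is high in 2 of the 3 America 72 h libraries, Unigene0002657 is lowest at 24 h in both origins, Unigene0029499 has 1 high library at 24 h in America, and Unigene0025353 is lower at each step in both origins.

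Whether the step from 24 h to 72 h differed between origins was tested directly. The change differed in 25 unigenes, 0.0809% of those tested, of which 16 changed upward and 9 downward in Iceland relative to America (edgeR, adjusted p under 0.05; 3288 at an unadjusted p under 0.05). The count was 208 with no filter on low counts, 8 with limma-voom and 491 with the DESeq2 Wald test. Leaving out 1 library moved it between 0 (without America 72 h replicate 3; edgeR, 3069 at an unadjusted p under 0.05) and 66 (without Iceland 72 h replicate 3). Of these 25, 4 were among the America rises and 3 among the America falls. In 21 the fitted changes of the origins had opposite signs, but most of those America changes did not pass. Some were close to 0, such as -0.02 in Unigene0038004 and 0.02 in Unigene0000069 (log2). Unigene0006285 and Unigene0026016 passed in both origins with opposite signs. None of the 4 unigenes described above passed the test of the difference between origins (edgeR adjusted p 0.123 to 0.870).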

How the data were processed

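Leaf RNA of 18 samples in 6 groups of 3 was sequenced. RSEM 1.3.1, cutadapt 1.18 and bcl2fastq 2.0.1 are listed in the submitters' processing notes with no roles; the assembly, its annotation and the strand setting are not given there. Per the file headers, the authors deposited a count and an FPKM column per library. The counts, as deposited, are whole and may be rounded RSEM estimates, in which near-identical unigenes can share reads. FPKM, as deposited, scales with the counts by 1 length per unigene, and that length was read from their ratio (within 0.00137% between libraries in 10 unigenes with at least 20000 counts in each library). FPKM was not tested.

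In R 4.3.3, filterByExpr kept 30895 unigenes, libraries were TMM-scaled, and edgeR 4.0.16 fitted 6 group means to all 18 by quasi-likelihood (12 residual degrees of freedom; biological coefficient of variation 0.345). P-values were adjusted by Benjamini-Hochberg within each comparison, threshold 0.05. The SE of a log2 fold change is its size over the square root of F. Log2 CPM adds a prior count of 2. Equal-depth detection is the expected number under random subsampling. The fit was also run on simulated counts as a code check, with a limit set only on the median error of the fold changes.

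Named unigenes passed the threshold, reached 5 CPM in a group and did not overlap (234 higher and 172 lower met this); in each direction the largest fold and the largest CPM difference were taken. Members, lists and tests were chosen with earlier results of these data known. Alternatives were DESeq2 1.42.0 (size factors; Wald test), limma-voom (limma 3.58.1), no filter, a replicate block, fewer libraries, a 2-fold minimum and other list sizes. Chi-square per unigene between replicates was 11.3 to 47.2 in these 6 libraries, above sampling noise, and none was treated as a duplicate. No batch is labelled.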

Additional observations from a re-analysis of the deposited data

Results flagged for a closer look

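The change from 24 h to 72 h of PEG differed between Iceland and America leaves, in the edgeR contrast of both changes, for 25 unigenes (adjusted p under 0.05). All 25 also passed in at least 1 of the origins, 21 of them in Iceland. Limma-voom called 8 and the DESeq2 Wald test 491, so the number is loosely fixed.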

How the results depend on the processing

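Counts of calls moved with the setting, for a cause that was not tested, while the 4 named unigenes kept their sign in every setting that tested them. For 72 h against 24 h in America (437) the DESeq2 Wald test called 1486 unigenes, a fit to only the 6 libraries compared 204 (139 of them among the 437) and a further minimum of 2-fold left 266. In Iceland (1149) the Wald test called 2619 and the 2-fold minimum left 751. For the difference between origins (25) the count was 208 with no filter on low counts, 8 with limma-voom and 491 with the Wald test. The 133 America calls shared with Iceland in the same direction became 475 with the Wald test.

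With the replicate block, within origin, the counts were 177, 570 and 2, and 57 shared. Same-numbered 72 h and 24 h America libraries deviated with correlations of -0.101 to -0.0487, and 0 of the 6 correlated best with their own number. Against untreated America libraries, the same-numbered correlations were 0.0179 to 0.144 at 72 h and 0.0115 to 0.165 at 24 h. Correlations of deviations from group means cannot decide whether the numbers pair the samples.

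Without 1 library the America count lay between 105 and 744, the Iceland count between 231 and 1812, and the shared calls between 42 and 226. The highest values came without untreated Iceland replicate 3, which belongs to none of these groups and enters the scaling, the filter and the estimate of spread. That library correlated at 0.908 and 0.896 with replicates 1 and 2 of its group, against 0.962 between those (log2 CPM). The cause of the higher counts was not tested. With the same unigenes tested, the America count was 138, 140 and 201 without 72 h replicate 1, 2 and 3, and 134, 135 and 491 without 24 h replicate 1, 2 and 3. Of the 491, 286 were among the 437 of the main fit. The difference between origins lay between 0 (without America 72 h replicate 3; edgeR, 3069 at an unadjusted p under 0.05, no other tool run) and 66 (without Iceland 72 h replicate 3). The share of America rises with a positive Iceland change stayed between 85.6% and 98.5% in all settings run, and that of falls with a negative one between 84.0% and 94.3%. Differences in library measures kept their sign in every setting run. Unigene0014965 could not be fitted with only the groups compared, because the filter removed it. Low counts limited detection among the least abundant unigenes.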

Other observations

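Beyond the 437 called unigenes, 3778 had a fitted change of at least 2-fold between 72 h and 24 h in America leaves without passing. In 1707 of these the 3 libraries of each time did not overlap, as in 6891 of all 30895 tested (22.3%). The 3778 were chosen for a wide fitted change, which by itself makes such a gap more frequent, so the count carries no test. At an unadjusted p under 0.05, 4302 unigenes (13.9% of those tested) differed. Of the 81 that passed in all 6 refits with a library left out and the same unigenes tested, the 61 rises had a median log2 fold change of 2.01 and the 20 falls of -1.24. In Iceland 60 of the 61 had a positive change and 19 of the 20 a negative one, and 30 and 12 passed there. These 81 were chosen after the data were seen, and the counts carry no test.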
